A study of Ovis aries with 16 samples.

Results

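TNF, IL1B and IL6, the genes of 3 pro-inflammatory cytokines, were followed in the hypothalamus of late-gestation fetal sheep (Ovis aries, Suffolk breed). Members were all probes that the array design names TNF, IL-1B or IL6, which gave 3 probes, 1 for each gene, among 15008 probes on the array, and all 3 were among the 12249 probes that passed the filter on dim signals. RNA from 16 fetuses was labelled with a single dye and hybridized to 16 Agilent sheep oligonucleotide arrays. The normoxia control group (NC, n = 3) received saline and then 30 min of normoxia, the normoxia plus ketamine group (NK, n = 4) received ketamine before the same period of normoxia, the hypoxia control group (HC, n = 5) received saline before 30 min of hypoxia, and the hypoxia plus ketamine group (HK, n = 4) received ketamine before hypoxia. Saline or ketamine, an anesthetic and antagonist of NMDA-type glutamate receptors, was given intravenously. Hypoxia was produced by running nitrogen into the trachea of the awake ewe, and every fetus recovered in normoxia for 23.5 h before collection at 24 h. All fetuses carried vascular catheters placed at earlier surgery under isoflurane, and all ewes had received ampicillin. Each pregnancy was assigned to normoxia or hypoxia, most fetuses were twins, and because littermates are not identified, kinship was not part of the model.

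TNF, IL-1β and IL-6 are signalling proteins that start and spread inflammation. In the brain they are made mainly by microglia, the resident macrophages, and also by astrocytes, endothelial cells and immune cells that enter from the blood. Toll-like receptors and their adaptor MYD88 switch the genes on through the transcription factor NF-κB, and TNF and IL-1β in turn act through their own receptors on NF-κB. IL-1β is made as an inactive precursor that must be cut before release, so its transcript does not report the active protein. IL-6 signals through gp130 and STAT3, and in the hypothalamus these cytokines are known as triggers of fever and of the stress hormone axis.

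The probes are shown because each gene rests on a single sequence. Each probe is 60 bases long, and its last 30 bases, 31 to 60 counted from the 5′ end as the scanner files write it, are printed. Capitals mark AATAAA, the canonical polyadenylation signal, where it was found.
TNF: agaAATAAAgtgtcctgagaaaagaaaaaa
IL1B: ttcagaatggaaaccctctctccctaaaga
IL6: cttacctcaaaaaatttgctaacttatgca
AATAAA was searched on the printed strand over all 60 bases, and 5.63% of the 15008 probes hold it. Only the TNF probe among the members does, and its sequence ends in 6 A. The probe for TNF and the probe for IL6 were each spotted once per array. The IL1B probe was spotted 5 times, and the SD of its spots within an array ranged from 0.03 to 0.2 log2 units with a median of 0.09. The arrays give no genome position for these probes, so none is stated.

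Signals are given as log2 of the processed signal relative to the 75th percentile of the same array, so 0 is the 75th percentile and each unit is a doubling. The level of one probe cannot be set against that of another, because probes bind with different strength. TNF and IL6 were dim: their processed intensity was 26.6 to 368 units for TNF and 31.5 to 418 for IL6, against 188 to 1696 for the IL1B spots. TNF and IL6 were well above background on 15 of the 16 arrays, the exception being HK1 for both, and IL1B was so on all 16. No member spot was saturated. The 75th percentile itself lay between 1238 and 1596 intensity units, between 71.6% and 80.5% of spots on an array were well above background, and arrays correlated with each other at 0.9564 to 0.987. The 16 arrays sat on 2 slides, each holding arrays of all 4 groups. Somatostatin (SST), a hypothalamic peptide, was at 3.81 to 5.14 on every array, and 10 of 18 listed hypothalamic peptide genes had a tested probe, with none called between HC and NC. PMCH was also steady, at -4.69 to -3.90, but other peptides varied widely between arrays. AGRP ran from -5.82 in NC2 to 1.57 in HC3, and GHRH from -4.71 in NK1 to 0.12 in HC3. The pituitary gene CGA ran from -6.38 in NK1 to 1.12 in HC3. In HC4 these were at -3.04, -4.43 and -6.03. The source of this spread was not tested.

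TNF was highest in HC. The relative log2 signal of TNF was -3.96, -2.12, -3.80, -2.30 and -4.45 in HC1 to HC5, and -4.63, -5.09 and -5.37 in NC1 to NC3. Every HC array lay above every NC array, with HC2 and HC4 clearly the highest. In HK the values were -5.54, -3.17, -5.66 and -5.43, so that HK2 stood within the HC range while the other 3 HK arrays lay below all HC arrays. In NK the values were -4.69, -4.61, -4.57 and -5.65, which overlapped both NC and HK.

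IL1B, the gene of interleukin-1β, was also highest in HC, on a set of arrays that overlapped in part with that of TNF. Its relative log2 signal was -0.57, -1.63, -2.20, 0.17 and -1.96 in HC1 to HC5, and -2.25, -2.55 and -2.18 in NC1 to NC3. HC4 and HC1 stood far above the rest, while HC3 lay inside the NC range. HK gave -2.35, -2.14, -1.87 and -1.64, and NK gave -2.48, -2.37, -2.18 and -2.27. The 4 NK arrays were the most tightly grouped, over a range of 0.30.

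IL6 was high on only a pair of arrays. Its relative log2 signal was -1.57 in HC1 and -1.82 in HC4, but -4.68, -4.64 and -4.53 in HC2, HC3 and HC5. The latter 3 lay between the NC values of -4.53, -4.0 and -5.06. NK gave -4.87, -4.69, -4.82 and -4.73, and HK gave -5.38, -5.12, -4.85 and -4.85, all below the lowest HC array. Compared with the NC mean, IL6 was 7.81-fold higher in HC1 and 6.53-fold higher in HC4, and 0.90 to 1.00 times the NC mean in the other HC arrays.

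**Figure D1:**
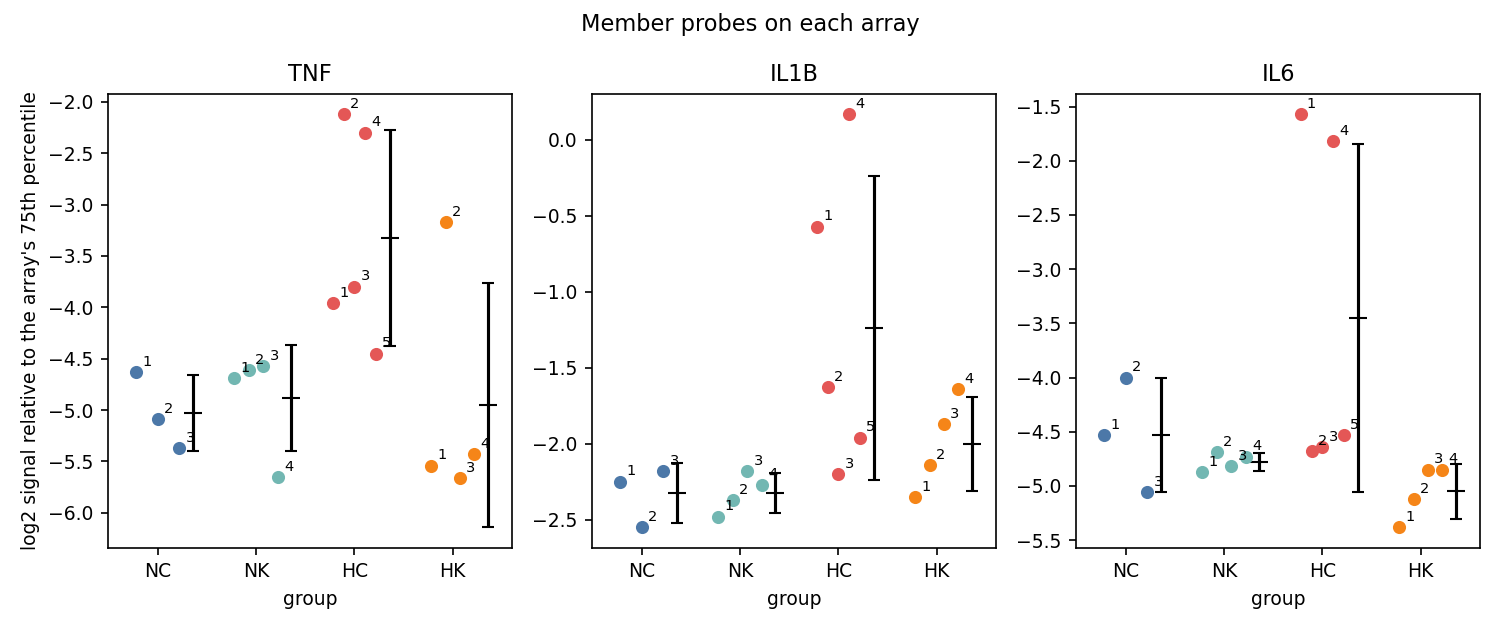
Relative log2 signal (y axis) of TNF, IL1B and IL6 by group (x axis), 1 point per array with its replicate number, and the group mean ± SD as a black bar. TNF in HC2 and HC4, IL1B in HC1 and HC4, and IL6 in HC1 and HC4 lie above the other HC arrays, and HK2 stands apart from the other HK arrays for TNF.

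To ask what hypoxia did in the absence of ketamine, HC was compared with NC. TNF averaged -3.32 ± 1.05 (SD, n = 5) in HC and -5.03 ± 0.37 (SD, n = 3) in NC. The difference was 1.71 ± 0.62 (SE) log2 units (95% confidence interval 0.38 to 3.04 log2 units, limma adjusted p = 0.499), or 3.27-fold. IL1B averaged -1.24 ± 1.00 in HC and -2.33 ± 0.20 in NC, a difference of 1.09 ± 0.42 log2 units (95% confidence interval 0.19 to 1.99 log2 units, limma adjusted p = 0.532), or 2.13-fold. IL6 averaged -3.45 ± 1.60 in HC and -4.53 ± 0.53 in NC, a difference of 1.08 ± 0.66 that did not pass the test (95% confidence interval -0.33 to 2.5, limma adjusted p = 0.712). TNF and IL1B thus rose at the threshold of the study's methods, an unadjusted p under 0.05, by which features are said to be called here, against 4.35% of all tested probes called higher in this comparison, and no member passed after Benjamini-Hochberg adjustment, nor did any of the 12249 probes.

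The TNF arrays of HC and NC did not overlap, as was the case in the same direction for 2.54% of tested probes. The size of the TNF difference depended on the scaling, with 0.76 under normexp and 0.59 in the deposited table. The rises of TNF and IL1B were not called in an exact permutation test of the difference in means over 56 arrangements, with p = 0.0536 for TNF and p = 0.125 for IL1B, where the smallest p attainable was 0.0179. The TNF call was lost without NC3 (1.54) and the IL1B call without NC2 (0.97), without HC1 (0.92), or when NC and HC were fitted alone. Within slide 1 the HC minus NC differences were 1.82 for TNF, 1.3 for IL1B and 1.14 for IL6, and within slide 2 they were 1.86, 0.85 and 1.39. All 3 members had the same direction on both slides, but slide 2 held NC3 as its only NC array. The IL6 values rested mainly on HC1 on slide 1 and on HC4 on slide 2.

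Ketamine given before hypoxia was examined by comparing HK with HC. TNF averaged -4.95 ± 1.19 (SD, n = 4) in HK and was lower than in HC by a factor of 3.09, a difference of -1.63 ± 0.57 (95% confidence interval -2.85 to -0.41, limma adjusted p = 0.707). IL6 averaged -5.05 ± 0.25 in HK and was lower by a factor of 3.03, a difference of -1.60 ± 0.60 (95% confidence interval -2.90 to -0.30, limma adjusted p = 0.707). IL1B averaged -2.0 ± 0.31 in HK, and its difference of -0.76 ± 0.38 did not pass (95% confidence interval -1.59 to 0.06, limma adjusted p = 0.735). TNF and IL6 thus fell at the unadjusted threshold, against 3.94% of all tested probes called lower, and none of the 12249 probes passed after adjustment. The HC arrays serve in both comparisons, so a high HC mean enters the rise from NC and the fall to HK alike.

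The IL6 arrays of HK all lay below those of HC, which was so for 0.506% of tested probes, although the lowest HC array, at -4.68, was close to the highest HK arrays, at -4.85. The exact permutation test over 126 arrangements gave p = 0.0635 for TNF, p = 0.0873 for IL6 and p = 0.238 for IL1B, where the smallest p attainable was 0.00794. Without HC4 the IL6 difference was -1.19 and was not called, nor was it in a fit of HC and HK alone. IL1B was called without HC3 (-1.0) and without HC5 (-0.94), the HC arrays with the lowest IL1B, but without HC4, the array with the highest, it was only -0.41 and was not called. Within slide 1 the HK minus HC differences were -1.31 for TNF, -1.14 for IL1B and -2.12 for IL6, and within slide 2 they were -2.03, -0.43 and -1.18. In the deposited table the differences were -0.54 for TNF, -0.60 for IL1B and -0.61 for IL6.

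Ketamine without hypoxia left none of the members called. NK minus NC was 0.15 ± 0.65 for TNF (95% confidence interval -1.24 to 1.54), 0.00 ± 0.44 for IL1B (-0.94 to 0.95) and -0.25 ± 0.69 for IL6 (-1.72 to 1.23), in a comparison where 1.09% of all tested probes were called. These intervals are wide enough to hold a change of more than 1 log2 unit in TNF and IL6. Hypoxia under ketamine, HK minus NK, gave 0.32 ± 0.41 for IL1B and -0.27 ± 0.64 for IL6. For TNF it gave -0.07 ± 0.60, a sign that turned under 3 other scalings, which gave 0.03 to 0.05 (quantile, normexp and the deposited table). No member was called there, against 8.69% of tested probes.

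Whether the ketamine difference depended on hypoxia was tested as the difference between HK minus HC and NK minus NC. It was -1.78 ± 0.86 for TNF (95% confidence interval -3.63 to 0.07), -0.77 ± 0.58 for IL1B (-2.02 to 0.49) and -1.35 ± 0.92 for IL6 (-3.32 to 0.61), all negative and none called, where 3.72% of tested probes were, with 2.53% of all tested probes called negative. For TNF the value became -1.96 with slide as a block and -2.37 without HK2, and was called in both. Within slide 1 it was -1.53 for TNF, -1.13 for IL1B and -1.61 for IL6, and within slide 2 it was -2.30, -0.38 and -1.47.

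**Figure D2:**
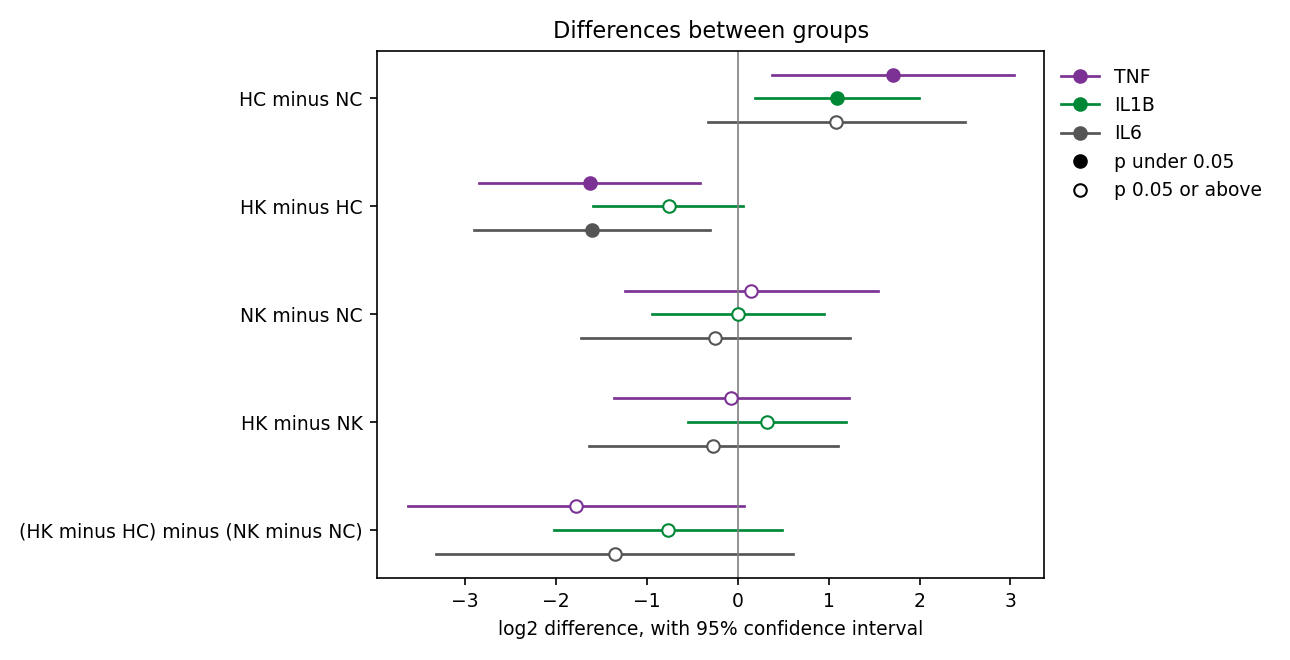
Fitted log2 differences (x axis) of TNF, IL1B and IL6 for the 5 comparisons (y axis), with 95% confidence intervals as lines and filled points where the unadjusted limma p was under 0.05. The filled points are TNF and IL1B for HC minus NC, at 1.71 and 1.09, and TNF and IL6 for HK minus HC, at -1.63 and -1.60.

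By group mean, HC came first for every member, and the order of the other groups differed between members. For TNF the order was HC, NK at -4.88, HK and NC. For IL1B it was HC, HK, NK at -2.32 and NC. For IL6 it was HC, NC, NK at -4.78 and HK. Among neighbours in these orders, the differences HC minus HK for IL1B, HC minus NC for IL6, and those between NC, NK and HK that were fitted as comparisons were not called. The spread within groups was also uneven: the SD of IL1B in HC was 1.00 against a pooled SD of 0.23 in the other groups, that of IL6 was 1.60 against 0.31, and that of TNF was 1.05 against 0.82. The fit gives the 4 groups a common spread.

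The same arrays were not high for all 3 genes. Of the 16 arrays, HC4 was the only one among the highest 2 for each member, ranking 2nd for TNF, 1st for IL1B and 2nd for IL6. HC1 ranked 1st for IL6 and 2nd for IL1B but 5th for TNF. HC2 ranked 1st for TNF and 3rd for IL1B but 7th for IL6. HK2 ranked 3rd for TNF, 7th for IL1B and 15th for IL6. Relative to the NC mean, TNF was 6.67-fold, IL1B 5.64-fold and IL6 6.53-fold higher in HC4, whereas in HC2 they were at 7.55, 1.62 and 0.90 times the NC mean. In HC5, the values were 1.5, 1.29 and 1.0 times the NC mean.

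Over the 16 arrays, TNF and IL1B had Pearson's r = 0.56 (permutation p = 0.0225, adjusted p = 0.0676 over the 3 pairs) and Spearman's rho = 0.43 (permutation p = 0.099, adjusted p = 0.297). Without HC2 and HC4, the arrays farthest from the TNF median, r was 0.21 (permutation p = 0.478), so its size depended on these arrays. Leaving out the extremes of TNF narrows its range, so this value cannot show that a relation is absent. Leaving out HC4 alone gave 0.31, and leaving out HC2 alone gave 0.61. Within slide 1 r was 0.47 and within slide 2 it was 0.75, with adjusted permutation p = 0.678 and p = 0.273. It was 0.62 once slide means were removed (adjusted permutation p = 0.0405). For the pairs with IL6, HC1 and HC4 form a cluster apart from the other 14 arrays, and a pooled r over both was not taken. These are the only arrays where IL6 was high, and for IL1B HC1 ranked 2nd and HC4 1st. The r over the other 14 arrays thus cannot show whether high IL6 went with high IL1B or TNF. Over those 14 arrays, TNF and IL6 had r = 0.09 (permutation p = 0.738) and rho = 0.32 (permutation p = 0.266), and IL1B and IL6 had r = -0.14 (permutation p = 0.621) and rho = -0.10 (permutation p = 0.74). Without the 2 arrays farthest from the median of the first gene, r was 0.36 for TNF with IL6 and -0.23 for IL1B with IL6. Within slide 1 r was -0.04 for TNF with IL6 and -0.17 for IL1B with IL6, and within slide 2 it was 0.58 and -0.04.

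With the group means removed, so that only differences among fetuses of a group remained, TNF and IL1B had r = 0.22 over 16 arrays (exact permutation p = 0.547, adjusted p = 0.933) and rho = 0.06 (exact permutation p = 0.856). Over the 14 arrays without HC1 and HC4, TNF and IL6 had r = -0.09 (exact permutation p = 0.75) and rho = -0.35 (exact permutation p = 0.238). On the same 14 arrays, IL1B and IL6 had r = 0.02 (exact permutation p = 0.933) and rho = 0.11 (exact permutation p = 0.762). No pair was called. Without HK2 and HC2, r for TNF with IL1B was 0.60 (exact permutation p = 0.197). In slide 1 it was -0.38 and in slide 2 it was 0.85 (adjusted exact permutation p = 1 and p = 0.375).

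**Figure D3:**
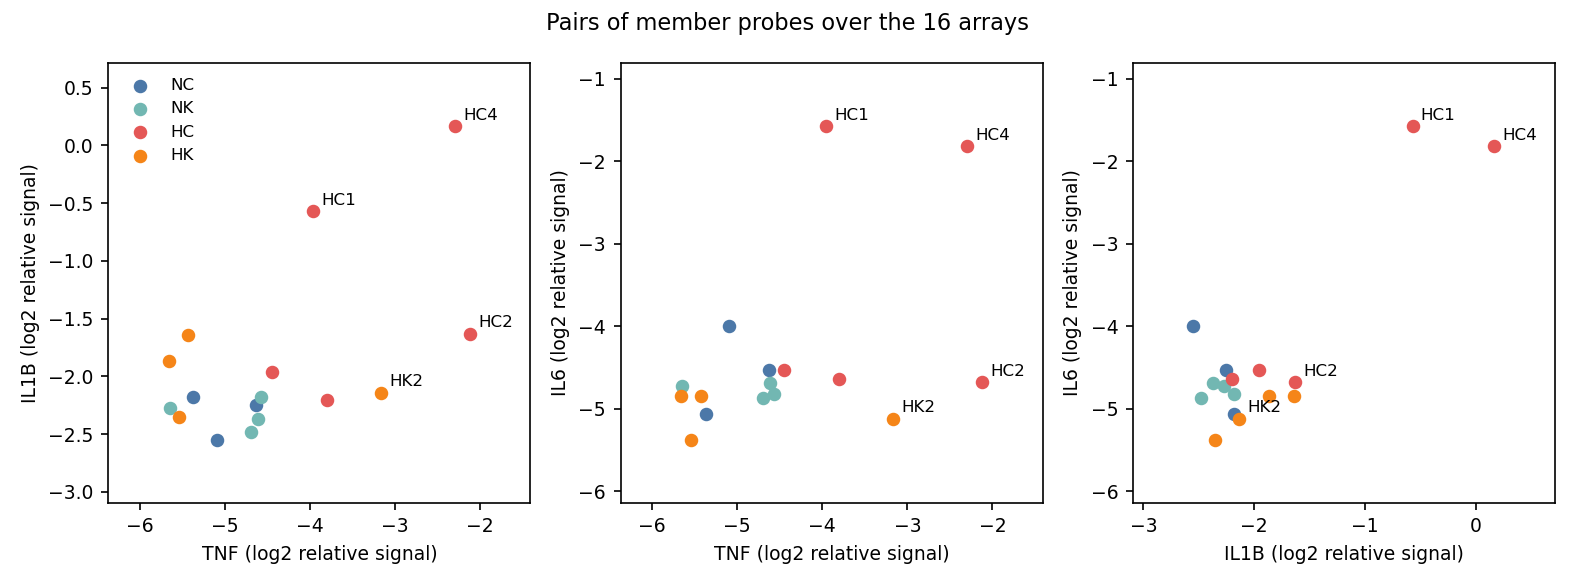
Relative log2 signals of each pair of members, 1 point per array coloured by group, with HC1, HC2, HC4 and HK2 named. HC4 is high on both axes of every panel, HC1 is high for IL1B and IL6, and HC2 and HK2 are high for TNF but not for IL6.

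The genes around these cytokines were described through a hand-written list of 96 cytokine pathway genes other than the members. Of these, 40 were on the array and 33 had a tested probe, each taken by its brightest one. In HC against NC, 15 of the 33 rose (45.5%), none fell and 18 were not called, with a median difference of 0.55, beside -0.02 and 4.35% higher among all tested probes. In HK against HC, 6 fell (18.2%), none rose and 27 were not called, with a median of -0.49, beside 0.03 and 3.94% lower among all tested probes. The count that fell was 3 without HC4 or without HK4 and 16 genes were called without HC5, of which 15 fell. In NK against NC none of the 33 was called, and the median was 0.02. In HK against NK, 2 of the 33 were called higher and 1 lower, with a median of 0.14, beside 2.39% higher and 6.30% lower among all tested probes. PTGS2 was higher in HK than in NK by 1.32 ± 0.53 and SELP by 3.24 ± 1.06, and IL18 differed by -0.44 ± 0.13. None of the 33 passed after adjustment over all probes in any of these comparisons. The study measured several of these genes by PCR on the same RNA, and its primers also covered the members TNF and IL1B. The list and these members are thus not independent of it.

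Sensors and signalling molecules lie upstream of the members. Of the 8 tested, 4 rose with hypoxia and 2 of them fell with ketamine after it. TLR2, a Toll-like receptor for bacterial lipoproteins, rose by 1.16 ± 0.30 and was lower in HK than in HC by a difference of -0.83 ± 0.27. CD14, the co-receptor for lipopolysaccharide, rose by 1.35 ± 0.59 and differed by -1.35 ± 0.55 in HK. TLR4, the lipopolysaccharide receptor, rose by 0.79 ± 0.29, and CEBPB, a transcription factor of IL6 and other acute-phase genes, rose by 1.61 ± 0.57. The adaptor MYD88, the kinase IRAK4 and the AP-1 subunits JUN and FOS were at 0.26, 0.33, 0.08 and 0.72 and were not called. Of 4 probes for FOS, 1 dimmer probe was called (1.04).

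Among other cytokines and chemokines, 1 of 10 rose. CXCL10, a chemokine for T cells that interferon and TNF induce, rose by 4.43 ± 1.74, with a mean of 2.21 ± 2.81 (SD) in HC and -2.22 ± 0.93 in NC, and was at 0.26 ± 3.70 in HK. CXCL8, the neutrophil chemokine, differed by 3.24 ± 1.68 and was not called, although its second, dimmer probe was (4.63). IL1A, the sister cytokine of IL1B that acts on the same receptor, differed by 0.67 ± 0.39 and was not called. IL18, which like IL-1β is released after cleavage by caspase-1, differed by 0.11 ± 0.14 in HC and fell by a difference of -0.47 ± 0.13 in HK against HC. The only cytokine receptor of the list on the array, TNFRSF1A, the main receptor for TNF, rose by 0.41 ± 0.18.

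Brakes on the pathway rose as well, 3 of the 5 tested. NFKBIA, the inhibitor of NF-κB and itself a target of it, rose by 1.37 ± 0.36 and differed by -0.75 ± 0.33 in HK against HC. IL1RN, the decoy ligand that blocks the IL-1 receptor, rose by 1.46 ± 0.66 but was well above background on only 8 of the 16 arrays. ZFP36, which speeds the decay of TNF mRNA, rose by 0.42 ± 0.16, and IL10 and TGFB1, which dampen inflammation, were at 0.12 and -0.03 and were not called.

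Targets that TNF and IL-1β are known to induce gave 6 of 9 called higher, with a median difference of 2.30. SELE, PLAU and SOD2 were not called, at -0.28, -0.26 and 0.30, and SELE was well above background on only 3 arrays. PTGS2, the inducible cyclooxygenase that makes fever-producing prostaglandin, rose by 2.96 ± 0.55 (limma adjusted p = 0.277, with no smaller one among all probes in this comparison) and was lower in HK by a difference of -1.14 ± 0.50. SELP and ICAM1, adhesion molecules that hold leukocytes to the vessel wall, rose by 4.71 ± 1.1 and 2.42 ± 0.80, though each was well above background on only 2 of 3 NC arrays. IRF1, a transcription factor of the interferon response, rose by 2.81 ± 0.80, and PTX3, a secreted pattern recognition protein, rose by 2.30 ± 0.71. NOS2, the inducible nitric oxide synthase, rose by 0.69 ± 0.25 and differed by -0.64 ± 0.23 in HK against HC. Its second probe was not called (0.14), nor was a dimmer second probe of PTGS2 (0.92). Among the 19 list genes with several tested probes, the probes of 4 differed in call for HC against NC, namely CXCL8, FOS, PTGS2 and NOS2. For HK against HC the probes of 6 differed. The second probes of CD14 (-1.18), PTGS2 (-1.39) and NOS2 (-0.29) were not called, so that 3 of the 6 genes that fell did so by only 1 of their probes. NFKBIA, which also fell, had only 1 tested probe. The second probes of JUN (-0.91), IRAK4 (-0.53) and IL1A (-1.15) were called lower although their brightest probes were not.

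**Figure D4:**
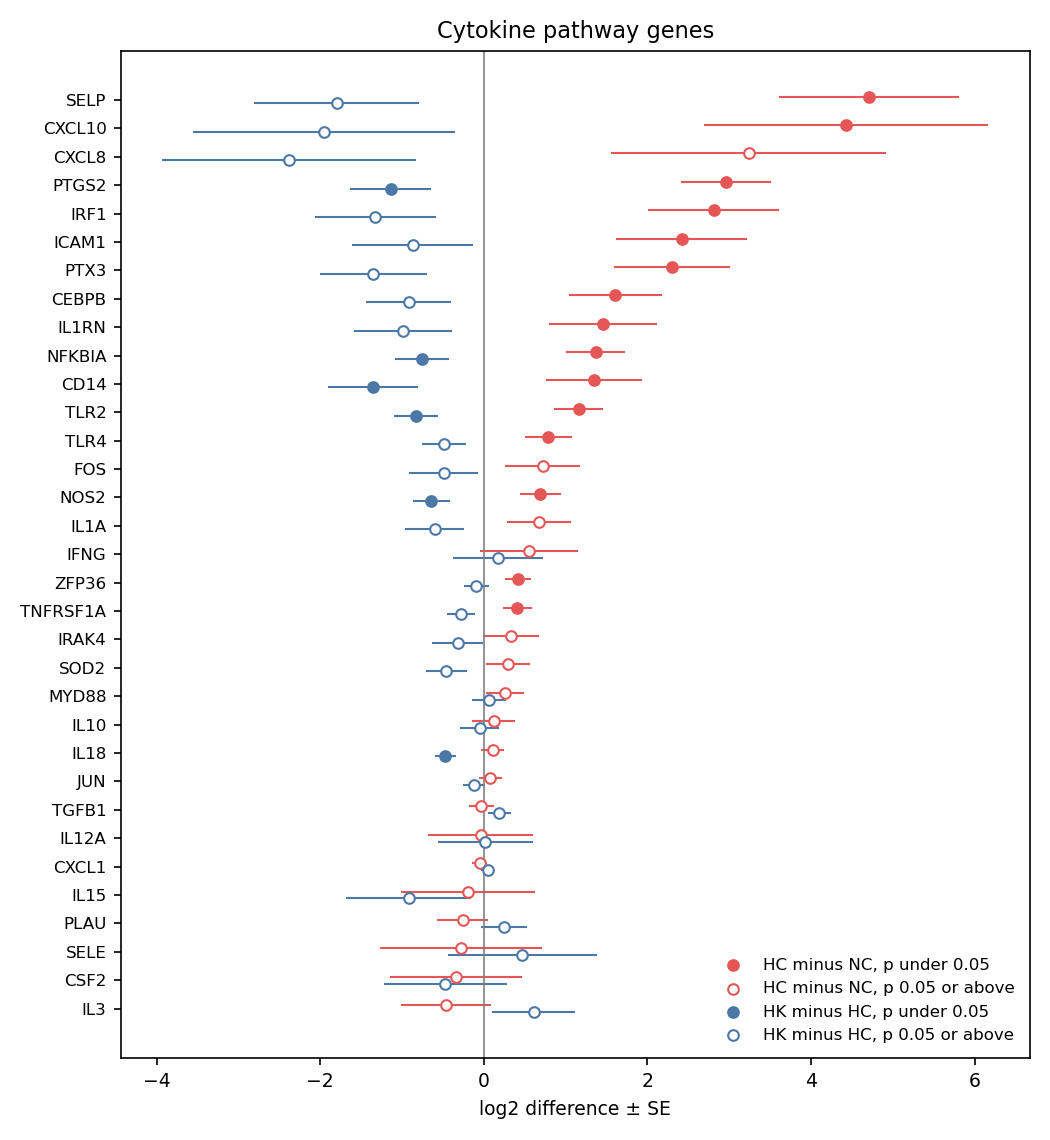
Fitted log2 differences ± SE (x axis) of the 33 tested cytokine pathway genes (y axis, ordered by HC minus NC) for HC minus NC in red and HK minus HC in blue, filled where the unadjusted limma p was under 0.05. The 15 filled red points lie right of 0, led by SELP at 4.71, and the 6 filled blue points lie left of 0.

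The called pathway genes were followed on the arrays that were high for the members. Because these 15 genes were picked for being higher in HC, what follows is a description. Of the 5 HC arrays, HC4 was the highest for 8 of the 15 genes and HC2 for the other 7, while HC5 was the lowest for 10 and HC3 for 4. The median of the 15 genes over the NC mean was 2.80 log2 units in HC2, 2.51 in HC4, 1.70 in HC1, 0.99 in HC3 and 0.35 in HC5. HC2, where IL6 was at the NC level, thus had 13 of the 15 genes more than 1 log2 unit above the NC mean, and HC1, where IL6 was highest, had 10. Among the HK arrays the median ranged from 0.13 in HK3 to 0.89 in HK2, the HK array in which TNF stood apart. CXCL10 was 5.82 log2 units and IRF1 was 3.33 log2 units above the NC mean in HK2, and CXCL10 was at 5.32 in HK4, where TNF was not raised.

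**Figure D5:**
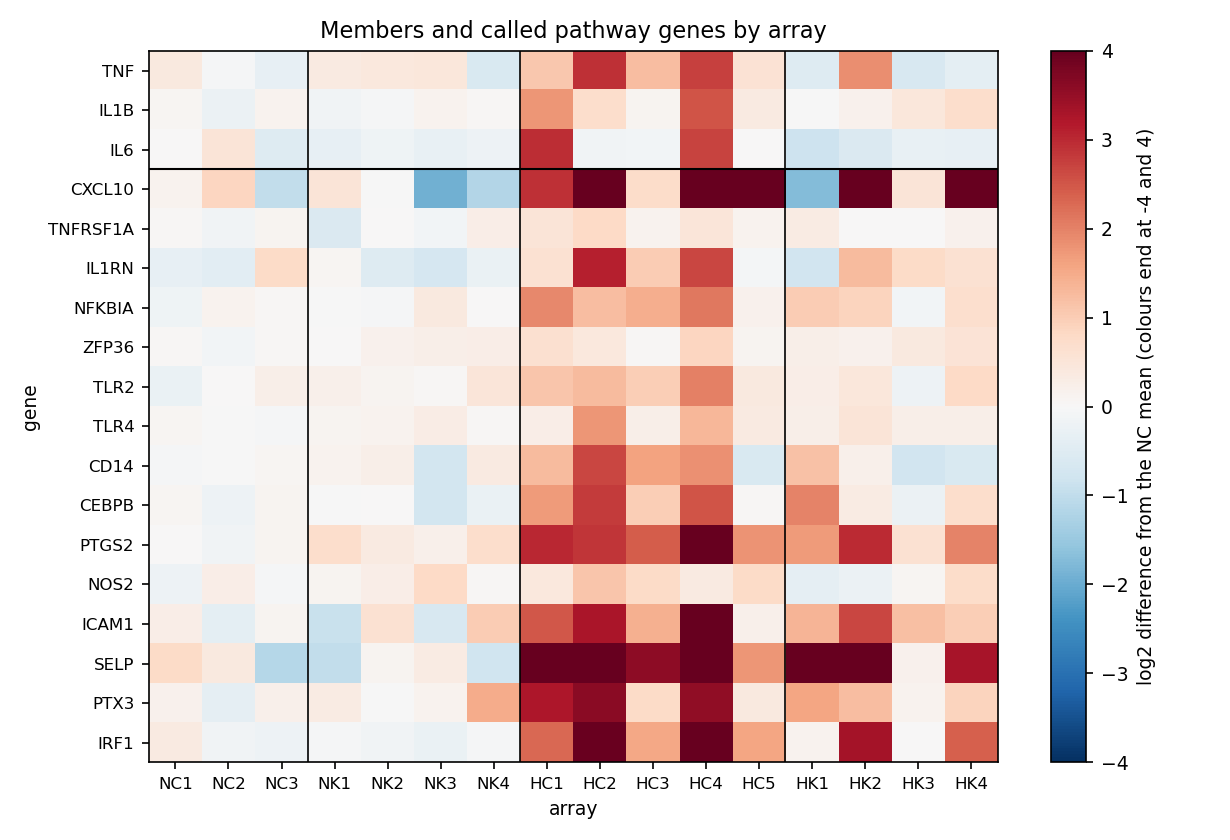
Log2 difference from the NC mean (colour, ending at -4 and 4) of the 3 members, above the line, and the 15 pathway genes called in HC against NC (rows) on each of the 16 arrays (columns). HC1, HC2 and HC4 are red for most rows, but IL6 is pale in HC2, and HC5 is pale for most rows.

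The 5 named genes most like each member were taken by the highest Pearson's r over the 16 arrays among the 866 other named genes with a tested probe, each by its brightest one. These values share group and slide, and are given as a description. For TNF they were FAS, a death receptor of the TNF receptor family (r = 0.87), TLR4 (0.85), CD5, a lymphocyte surface protein (0.84), IRF1 (0.84) and CD40, a receptor of antigen-presenting cells (0.82). Without HC1 and HC4 their r with TNF was 0.77 to 0.85. For IL1B they were CCN1, a secreted matrix protein of the immediate early response (0.93), CREM (0.90), ZFP36 (0.90), MCL1 (0.86) and RTP4 (0.85), and without HC1 and HC4 their r was 0.51 to 0.82. For IL6 they were CCN1 (0.81), FOS (0.80), CREM (0.77), CXCL8 (0.75) and NAMPT (0.73). The likeness to IL6 rested on HC1 and HC4, since r over the other 14 arrays was -0.22 to 0.24. Over all tested probes with a value on every array, 0.411% had r above 0.8 with TNF, 0.255% with IL1B and 0.0575% with IL6.

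The cells that could carry these transcripts were checked with marker lists. In whole tissue, more cells of a type and more RNA per cell cannot be told apart. Of 18 genes listed for microglia and macrophages only 4 were on the array, and 3 of them rose in HC against NC: ITGAM by 0.75, CYBB by 1.16 (well above background on 4 arrays) and FCGR1A by 1.01. FCGR1A also fell by a difference of -0.89 in HK against HC. The summed level of the 4 genes, in units of the array's 75th percentile, was 2.51 to 3.03 in NC, 2.66 to 2.97 in NK, 2.06 to 6.71 in HC and 2.21 to 3.32 in HK. This sum came almost wholly from CTSS, a lysosomal protease that was not called (0.28), so the 3 genes that rose hardly enter it. It was highest in HC2, at 6.71, where TNF was highest, and lowest in HC1, at 2.06, where IL6 was highest and IL1B second. Of 12 genes listed for lymphocytes, 3 were tested. CD3D (1.58, well above background on 11 arrays) and CD5 (1.14) rose in HC and CD3E (0.67) was not called, while CD4 was on the array but not tested. The summed level of the 3 tested genes was 0.15 to 0.20 in NC, 0.17 to 0.23 in NK, 0.20 to 0.44 in HC and 0.12 to 0.41 in HK. It came mainly from CD3E and CD5. The single neutrophil marker on the array, LTF, was not called (0.77), and its level was 0.04 to 0.07 in NC, 0.06 to 0.21 in HC and 0.03 to 0.43 in HK. None of the 6 tested endothelial genes was called in HC, and the red blood cell marker HBB was not either. The part of these markers in the values of TNF, IL1B and IL6 was not tested.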

How the data were processed

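RNA of 16 fetal hypothalami was measured on 1-color Agilent sheep arrays, 1 array per fetus. The members and gene lists were chosen with earlier results of these data known. Per the file headers, the authors' scanner files were made with Feature Extraction 10.1.1.1 and hold deposited intensity values per spot, with background subtracted within the array and no normalization between arrays, along with flags that mark a spot as an outlier, as saturated or as well above background. The authors also deposited a table of log2 values of the same arrays, with a median of 8.53 in every array. Its background correction and normalization are not given in the sources used here, and its low values are compressed relative to the processed signal. It served as an alternative.

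Of 15744 spots per array, 536 control spots and outlying spots (0.0801%) were left out and saturated spots kept. The log2 processed signal was reduced by the array's 75th percentile, and spots of a probe were averaged. A probe was tested if at least 3 arrays showed it well above background. Names came from RefSeq accessions (726 of 750 matched to the assembly ARS-UI_Ramb_v3.0), from gene identifiers for 139 further probes, and otherwise from the array design; 89% of probes had no name. No genome build is given for the probes.

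The 4 group means were fitted to all arrays with limma 3.58.1 in R 4.3.3, with empirical Bayes moderation and two-sided tests, which was checked on simulated data. "Called" means an unadjusted p under 0.05, which is the cutoff in the methods of the study; adjustment was Benjamini-Hochberg over all tested probes. Exact and 100000-resample permutation tests were two-sided (Python 3.11.15, scipy 1.17.1, numpy 2.4.6). The rule for named genes took all members, every pathway gene called in HC against NC or HK against HC by its brightest tested probe, and the 5 genes most correlated with each member, and allowed any other tested pathway gene to be named. Second probes and marker genes lie outside it and were chosen after their values were seen. Fetuses are the replicates, and the number of arrays limits the precision.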

Additional observations from a re-analysis of the deposited data

Results flagged for a closer look

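In groups of 4 or 5 arrays, an array was singled out where its gap to the nearest other array made up most of the group's range (Dixon's 95% limit). This was examined for 19 genes, the members and the pathway genes called in HC against NC or HK against HC, in 3 groups each. The pathway genes were thus picked by their calls in these data. Of 57 groups, 4 had such an array, where chance gives about 1 in 20. TNF in HK2 was at -3.17, against -5.66 to -5.43 in the other HK arrays. TNF in NK4 was at -5.65, against -4.69 to -4.57 in the other NK arrays. TLR4 in HK2 was at -4.62, against -4.92 to -4.90. NFKBIA in NK3 was at 1.05, against 0.60 to 0.66.

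The ketamine difference with hypoxia (HK minus HC) differed from that under normoxia (NK minus NC), at an unadjusted p, for 3 pathway genes. It was -0.55 ± 0.19 (SE) log2 units for IL18, -1.04 ± 0.41 for TLR2 and -0.94 ± 0.34 for NOS2. None passed after Benjamini-Hochberg adjustment in limma (adjusted p = 0.997 for each), and 3 of 33 pathway genes were lower in this test, beside 2.53% of all tested probes.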

How the results depend on the processing

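The HC minus NC and HK minus HC differences of TNF, IL1B and IL6 kept their direction under every alternative run, and their call under quantile normalization, normexp, the deposited values, both percentile rules, the filters on dim probes, slide as a block, array weights and an intensity trend. Their size was not kept. With normexp and the deposited values, HC minus NC was 0.76 and 0.59 for TNF, 0.87 and 0.84 for IL1B, and 0.54 and 0.44 for IL6. HK minus HC was then -0.71 and -0.54 for TNF, -0.61 and -0.60 for IL1B, and -0.75 and -0.61 for IL6. The exact permutation test lost the calls of TNF (1.71) and IL1B (1.09) in HC against NC and of TNF (-1.63) and IL6 (-1.60) in HK against HC. A fit of the compared groups alone lost IL1B (1.09) and IL6 (-1.60), and gave 3 pathway genes called in HK against HC and 1 in NK against NC. Slide as a block and array weights brought the TNF interaction to -1.96 and -2.01, past the threshold.

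Replicate numbers run with slide, and samples of the same number deviated together no more than others on their slide (median r 0.22 over 21 pairs, -0.058 to 0.346, against 0.21). Pairs on different slides had a median r of -0.18 over 48 pairs. Arrays of a slide thus deviated together, and the main fit has no slide term. With the replicate number as a block, IL1B in HK against HC was -0.94 and the TNF interaction -2.12, both called, NK minus NC of IL1B was -0.18, and 16 pathway genes were called in HK against HC, 7 in HK against NK and 8 in the interaction, while no other member's call changed. Array weights gave 5 pathway genes in HK against NK and 7 in the interaction, where the deposited values gave 1.

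Differences near 0 changed sign. NK minus NC of IL1B became -0.02 with quantile normalization, -0.02 with normexp, -0.01 with the deposited values, 0.00 with the percentile over probes detected on all arrays and -0.02 with slide as a block. HK minus NK of TNF became 0.03 under quantile normalization, 0.04 under normexp and 0.05 in the deposited table.

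Over all arrays, r of TNF with IL1B was 0.62 with slide means removed, past the threshold, and -0.11 in the 7 normoxic arrays. All values here for pairs with IL6 leave out HC1 and HC4, so that 7 hypoxic arrays remain for them. TNF with IL6 became -0.02 with quantile normalization and -0.04 in slide 1, and IL1B with IL6 became 0.53 in the hypoxic arrays. Within groups, TNF with IL1B became -0.38 in slide 1 and -0.12 in the normoxic arrays. TNF with IL6 became 0.08 with normexp, 0.05 with the deposited values, 0.26 in slide 1, 0.06 without the 2 farthest arrays and 0.13 in the normoxic arrays. IL1B with IL6 became -0.02 with normexp, -0.02 with the deposited values, -0.36 in slide 1, -0.37 without the 2 farthest arrays and -0.71 in the normoxic arrays, against 0.69 in the hypoxic arrays. The cause was not tested for any of these.

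Leaving out each array in turn, HC minus NC ranged from 1.41 to 1.99 for TNF, 0.74 to 1.33 for IL1B and 0.61 to 1.39 for IL6. HK minus HC ranged from -2.22 to -1.33 for TNF, -1.0 to -0.41 for IL1B and -1.91 to -1.13 for IL6. NK minus NC ranged from -0.02 to 0.41 for TNF, -0.11 to 0.08 for IL1B and -0.51 to 0.02 for IL6, and HK minus NK from -0.67 to 0.17, 0.20 to 0.44 and -0.34 to -0.16. The interaction ranged from -2.37 to -1.48 for TNF, where it was called without NK4, HC1, HC5 or HK2, from -1.01 to -0.41 for IL1B and from -1.66 to -0.88 for IL6. The pathway genes called ranged from 10 to 18 in HC against NC, 3 to 16 in HK against HC, 2 to 6 in HK against NK (most changed without HK1 or HK3) and 2 to 8 in the interaction (without HC3, HC5 or HK2), and were 0 throughout in NK against NC. Over all 16 arrays, r of TNF with IL1B ranged from 0.31 to 0.62 and passed without HC1 or HK2. Over the 14 arrays without HC1 and HC4, r ranged from -0.06 to 0.25 for TNF with IL6 and from -0.32 to 0.21 for IL1B with IL6. Within groups, r of TNF with IL1B ranged from -0.09 to 0.36. Without HC1 and HC4 it ranged from -0.29 to -0.01 for TNF with IL6 and from -0.27 to 0.46 for IL1B with IL6. The dim signals of TNF and IL6, 1 spot per array each, limit how finely low values can be told apart.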

Other observations

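OCLN, a tight junction protein of the endothelium, was higher in HK than in HC by 0.90 log2 units and was called, and it differed by -0.60 in HC against NC, which was not called. SLC1A2, the glutamate transporter of astrocytes, was lower in HC than in NC by a difference of -1.12 and higher in HK than in HC by 1.28, both called, but it was well above background on only 6 arrays. GFAP and AQP4, the other astrocyte markers tested, were not called in either comparison, at 0.50 and -0.12 in HC against NC. None of the 10 tested hypothalamic peptide genes was called in HC against NC or HK against HC.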
